A study of Saccharomyces cerevisiae with 6 samples.

Results

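Meiosis and spore formation in budding yeast follow a cascade of gene expression that is shut off in cells that divide by mitosis. Early genes, which carry out chromosome pairing and recombination, are repressed by Ume6 and switched on through the inducer Ime1. Middle genes, for the meiotic divisions and the prospore membrane, are repressed by Sum1 and switched on by Ndt80, and late genes build the spore wall. The 33 genes described here were listed by name from all 3 phases. The rule uses no measured value, though the list was drawn up with earlier results of these data known. All 33 were measured, each by 1 probe set, out of 5449 Saccharomyces cerevisiae genes on the arrays, and were divided by textbook knowledge into 16 early, 12 middle and 5 late genes. The line between middle and late genes is not sharp.

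The arrays were hybridised with 3 RNA samples of wild type cells and 3 of cells with a deletion of VPS4 (Delta VPS4 in the labels), which lack the ATPase that recycles the ESCRT-III complex at endosomes. Both genotypes were in mid-log growth at 26 °C in YNB synthetic medium with the amino acids they needed, so neither was placed under conditions that induce sporulation, and the labels give no ploidy and no strain background. The wild type arrays carry the replicate numbers 4, 6 and 3 and the deletion arrays 4, 5 and 6. The labels do not say whether each replicate was its own culture. The p-values therefore measure only how far these 6 samples scatter, which may be technical. On every deletion array VPS4 itself lay below background, at least 760.5-fold under its wild type level (limma adjusted p = 1.30e-07). The markers of alpha mating type were bright on all arrays, with MF(ALPHA)1 between 13.01 and 13.11. Wild type replicate 3 stood apart. Its correlation across probe sets was 0.993 with each of the other wild type arrays, against 0.999 between those 2. It differed from their mean by more than 0.5 log2 for 5.33% of all probe sets.

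Values are log2 GCRMA expression levels, and each difference is deletion minus wild type on that scale. A member passed the test where the adjusted p of limma, a linear model with variances shared across genes, was under 0.05 after Benjamini-Hochberg adjustment over all 5498 tested probe sets. A probe set counts as above background where it exceeded percentile 95 of the array's probe sets for another yeast species, which measure no RNA of these cells, a level between 1.82 and 1.92. Of the 33 members, 28 lay above background on all 6 arrays (84.8%, against 97.1% of all tested probe sets). Most were nonetheless dim, with a median over members from 3.05 to 3.37 on the arrays, against 9.12 to 9.15 over all tested probe sets. RED1 and SPS19 were the brightest members, with wild type means of 8.86 and 8.56. MEK1 and SPR28 were above background on no array, and REC114, SPO74 and DIT2 were above it on some arrays. GCRMA compresses differences near this level, so small differences in the dimmest members may not have been detectable. In bulk RNA, transcription in a few cells and weak transcription in all cells cannot be told apart.

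**Figure D1:**
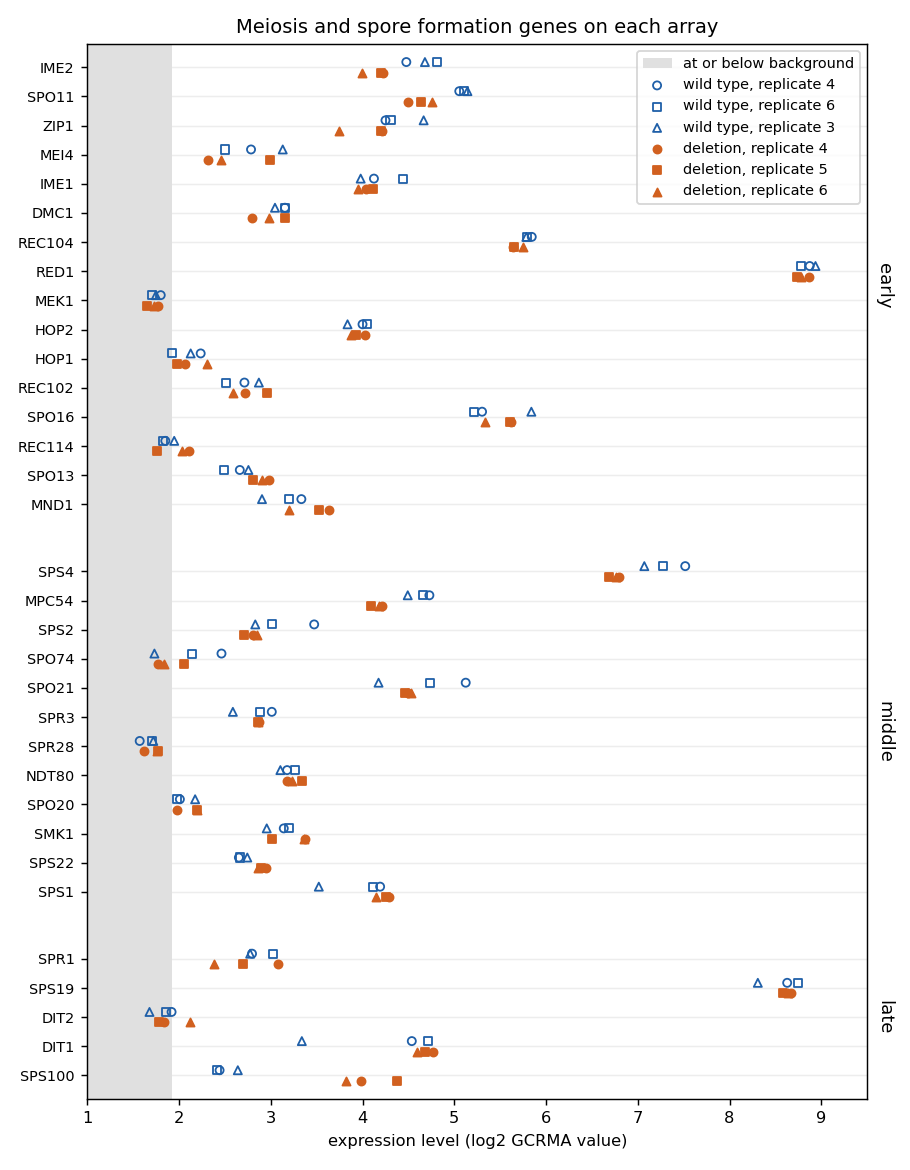
Expression level (log2 GCRMA value, horizontal axis) of each of the 33 genes on each array, with wild type as open and deletion as filled symbols and the shape giving the replicate. The grey band ends at the highest background of the 6 arrays; SPS100 is the gene whose deletion arrays, at 3.82 to 4.37, sit farthest from its wild type arrays, at 2.42 to 2.64.

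Most of the meiosis and spore formation genes had similar levels in both genotypes, with 24 of 33 differing by less than 0.3 log2. SPS100, a late gene for a spore wall protein, rose, SPO11 and MPC54 fell, and 30 did not pass the test. That is 1 of 33 higher (3.03%), beside 2.82% of all probe sets called higher, and 2 of 33 lower (6.06%), beside 1.46% called lower. These shares rest on 1 and 2 genes, and no test of the list was made. The groups did not overlap for 3 members with the deletion higher, SPO13, SPS22 and SPS100, which is 9.09% of members beside 13.0% of all probe sets. For 6 members, IME2, SPO11, REC104, ZIP1, MPC54 and SPS4, every deletion array was below every wild type array, which is 18.2% of members beside 11.8% of all. An unadjusted limma p under 0.05 was reached by 7 of the 33 members (21.2%), beside 17.4% of all probe sets. The differences ran from −0.54 for SPS4 to 1.56 for SPS100, with 17 above 0 and 16 below. Their median was 0.02, against 0.00 over all tested probe sets, and its sign turned with the processing, to −0.04 without wild type replicate 3. The median absolute difference was 0.15 in the members and 0.06 over all, and the median SE was 0.12 in the members and 0.06 over all.

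**Figure D2:**
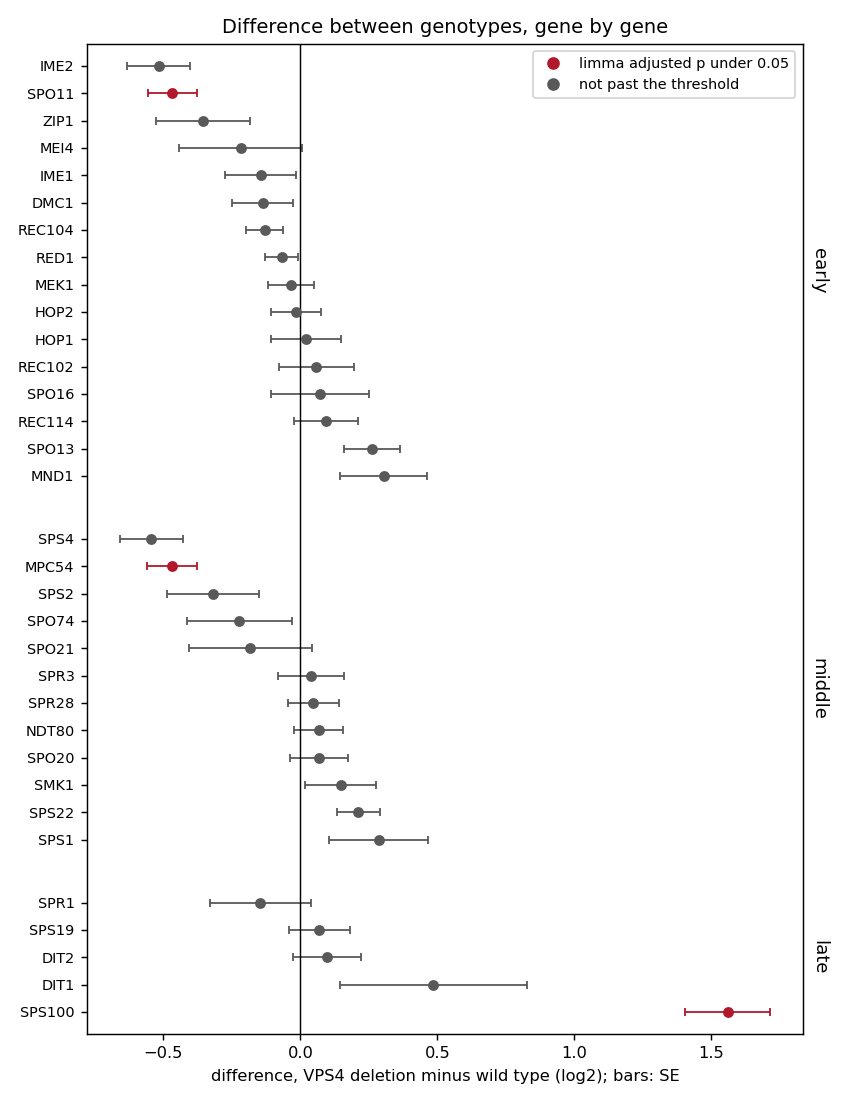
Difference between genotypes for each gene (deletion minus wild type, log2), with bars for the SE of the limma fit on 3 arrays per genotype and red points for adjusted p under 0.05. The red points are SPO11 and MPC54, both at −0.47, and SPS100 at 1.56.

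The 3 master regulators gave 0 calls by limma, and IME2 alone of them had an unadjusted p under 0.05. IME1 (YJR094C), the transcriptional inducer of meiosis, stood at 4.12, 4.44 and 3.98 on wild type replicates 4, 6 and 3 and at 4.04, 4.12 and 3.95 on deletion replicates 4, 5 and 6. The groups overlapped, and the difference of −0.14 ± 0.13 (SE) did not pass (limma adjusted p = 0.652). IME2 (YJL106W), the protein kinase that acts after Ime1, measured 4.48, 4.81 and 4.68 on the wild type arrays and 4.23, 4.20 and 4.00 on the deletion arrays. All 3 deletion arrays were below all 3 wild type arrays, by −0.52 ± 0.12 (SE) on average, but the difference missed the threshold (limma adjusted p = 0.0615). NDT80 (YHR124W), the activator of the middle genes, measured 3.18, 3.26 and 3.11 on the wild type arrays and 3.18, 3.34 and 3.23 on the deletion arrays. The groups overlapped, and the difference of 0.07 ± 0.09 (SE) was smaller than its error (limma adjusted p = 0.772).

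Among the early genes, SPO11 (YHL022C) encodes the topoisomerase-like protein that cuts DNA to start meiotic recombination. Its levels were 5.05, 5.11 and 5.14 on the wild type arrays and 4.50, 4.64 and 4.76 on the deletion arrays. The groups were apart, with the wild type arrays within 0.09 of each other, and the mean fell from 5.10 ± 0.04 to 4.63 ± 0.13 (SD, n = 3). The difference was −0.47 ± 0.09 (SE), a 1.38-fold decrease (limma adjusted p = 0.0386). AIM17, one of its neighbouring genes, rose by 0.37 ± 0.04 (SE; limma adjusted p = 0.00881), and NPR3, the neighbour on the other side, differed by −0.02 ± 0.05. The call for SPO11 held in 1 of the 6 fits that each left out an array, namely the fit without wild type replicate 3 (−0.45, limma adjusted p = 0.0165). In the other 5 the difference lay between −0.40 and −0.53, with limma adjusted p from 0.0730 to 0.146.

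The partners of Spo11 in break formation did not follow one direction. REC104 measured 5.84, 5.80 and 5.79 on the wild type arrays and 5.64, 5.65 and 5.75 on the deletion arrays, so its groups were apart by a narrow margin (difference −0.13 ± 0.07, limma adjusted p = 0.388). REC102, MEI4 and REC114 differed by 0.06 ± 0.14, −0.22 ± 0.22 and 0.09 ± 0.12 (SE). None of these partners passed the test. No gene for the chromosome axis or the synaptonemal complex passed the test either. RED1 and HOP1, which encode axis proteins, differed by −0.07 ± 0.06 and 0.02 ± 0.13, and MEK1, the kinase that acts with them, was not above background. ZIP1, for the central region of the synaptonemal complex, measured 4.25, 4.30 and 4.67 on the wild type arrays and 4.21, 4.21 and 3.74 on the deletion arrays. Its arrays did not overlap, though the closest values of the genotypes differed by less than the spread within either (difference −0.35 ± 0.17, limma adjusted p = 0.352). SPO16, needed for crossovers, differed by 0.07 ± 0.18.

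DMC1, the meiotic recombinase, differed by −0.14 ± 0.11 (SE). HOP2 and MND1, which encode the complex that assists it, differed by −0.02 ± 0.09 and 0.30 ± 0.16. SPO13, which keeps sister chromatids moving together in the first meiotic division, was between 2.49 and 2.76 in wild type and between 2.80 and 2.99 in the deletion (difference 0.26 ± 0.10, limma adjusted p = 0.261). Over the 16 early genes, 1 fell, 0 rose and 15 did not pass, with a median difference of −0.05 and a range from −0.52 to 0.30. At an unadjusted limma p under 0.05, 2 were lower (IME2 and SPO11) and 1 was higher (SPO13), which is 18.8% of them beside the 17.4% of all probe sets.

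Among the middle genes, MPC54 (YOR177C) encodes a protein of the meiotic outer plaque, the face of the spindle pole body on which the prospore membrane starts to grow. Its levels were 4.73, 4.66 and 4.49 on the wild type arrays and 4.21, 4.09 and 4.18 on the deletion arrays. The groups were apart, and the mean of 4.63 ± 0.12 in wild type was lowered to 4.16 ± 0.06 without VPS4 (SD, n = 3), a 1.38-fold decrease (difference −0.47 ± 0.09 SE, limma adjusted p = 0.0394). As for SPO11, the call held only in the fit without wild type replicate 3 among the 6 fits that left out an array, and limma adjusted p was between 0.128 and 0.162 in the others. Its partners in the outer plaque showed a wide spread in wild type. SPO21 measured 5.12, 4.73 and 4.17 on the wild type arrays and 4.49, 4.47 and 4.53 on the deletion arrays. The wild type values surrounded those of the deletion, and the difference of −0.18 ± 0.22 (SE) did not pass (limma adjusted p = 0.750). SPO74 measured 2.46, 2.14 and 1.73 on the wild type arrays and 1.77, 2.05 and 1.84 on the deletion arrays, with wild type replicate 3 and 2 of the deletion arrays at background.

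SPS4 (YOR313C), a gene named for its sporulation-specific transcript, measured 7.52, 7.28 and 7.07 on the wild type arrays and 6.79, 6.68 and 6.76 on the deletion arrays. Every deletion array was below every wild type array, by −0.54 ± 0.11 (SE), and the difference just missed the threshold (limma adjusted p = 0.0531). Its neighbour RPL20B, for a ribosomal protein, differed by 0.01 ± 0.02. SPS2 and SPS22 encode related proteins of the spore wall. SPS2 measured 3.47, 3.02 and 2.83 on the wild type arrays and 2.80, 2.71 and 2.85 on the deletion arrays, overlapping through wild type replicate 3 (difference −0.32 ± 0.17, limma adjusted p = 0.391). SPS22 went the other way, from 2.65 to 2.74 in wild type and from 2.86 to 2.94 in the deletion, without overlap and without passing (0.21 ± 0.08, limma adjusted p = 0.237).

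The protein kinases SPS1 and SMK1, which act in spore wall formation, differed by 0.29 ± 0.18 and 0.15 ± 0.13 (SE). SPO20, which encodes a SNARE protein of the prospore membrane, differed by 0.07 ± 0.11. SPR3, for a sporulation septin, differed by 0.04 ± 0.12, and SPR28, another such septin, was not above background. Over the 12 middle genes, 1 fell, 0 rose and 11 did not pass, with a median of 0.04 (−0.03 without wild type replicate 3) and a range from −0.54 to 0.29. At an unadjusted limma p under 0.05, 2 were lower (MPC54 and SPS4) and 1 was higher (SPS22), 25.0% of them beside the same 17.4%.

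SPS100 (YHR139C), which encodes a protein needed for maturation of the spore wall, showed the one increase among the members. Its levels were 2.44, 2.42 and 2.64 on the wild type arrays and 3.99, 4.37 and 3.82 on the deletion arrays. All 6 values lay above background, and the groups were more than 1 log2 apart at their nearest values. The mean rose from 2.50 ± 0.12 to 4.06 ± 0.28 (SD, n = 3), a 2.95-fold increase (difference 1.56 ± 0.16 SE, limma adjusted p = 0.00582). The call held in all 6 fits that left out an array, with differences from 1.40 to 1.68 and limma adjusted p from 7.27e-05 to 0.0461.

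In the RefSeq annotation of assembly R64 the SPS100 gene is overlapped by SUT169, an antisense RNA without a probe set named here, and it was the one member with an overlapping locus. Whether the signal of the SPS100 probe set holds any from that transcript was not tested. The measured protein-coding neighbour of SPS100, YHR138C, had a mean of 9.29 ± 0.38 on the wild type arrays and 9.91 ± 0.01 on the others (SD, n = 3), a difference of 0.62 ± 0.17 (SE) that did not pass (limma adjusted p = 0.115). Among 53 measured neighbours of the 33 members, 2 rose and 0 fell by limma, beside 2.82% and 1.46% of all probe sets. The 2 neighbours were AIM17 and ERG25, the neighbour of SPR3, which rose by 0.09.

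None of the other 4 late genes passed the test. DIT1 and DIT2 are neighbours and encode enzymes that make the dityrosine of the outer spore wall. DIT1 measured 4.54, 4.71 and 3.34 on the wild type arrays and 4.76, 4.68 and 4.60 on the deletion arrays. Wild type replicate 3 was 1.28 log2 below the mean of the other wild type arrays, which lay close to the deletion values, and the difference of 0.49 ± 0.34 (SE) did not pass (limma adjusted p = 0.549). Without that array the difference was 0.06 ± 0.11. DIT2 was at or near background throughout, between 1.68 and 2.12. SPR1, for a sporulation glucanase, and SPS19, for a peroxisomal enzyme of fatty acid breakdown, differed by −0.15 ± 0.18 and 0.07 ± 0.11. Over the 5 late genes, 1 rose, 0 fell and 4 did not pass, with a median of 0.10. At an unadjusted limma p under 0.05, SPS100 remained the single late gene, 1 of the 5 beside 17.4% of all probe sets.

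For several members wild type replicate 3 lay away from its group. It differed from the mean of the other wild type arrays by more than 0.5 log2 in 5 of the 33 members (15.2%, beside 5.33% of all probe sets). DIT1, SPO21, SPS1 and SPO74 were lower there, by −1.28, −0.75, −0.63 and −0.57, and SPO16 was higher, by 0.58. Of 11 genes listed as markers of nutrient limited or stationary cells, 5 were lower by more than 0.5 log2 on the same array. These were SPG4 by −4.65, ICL1 by −1.92, PCK1 by −1.17, HSP12 by −0.87 and FBP1 by −0.67. HSP26, CTA1 and ADH2 were higher there, by 0.44, 0.21 and 0.01, and 0 of the list by more than 0.5. The summed log2 level of that marker list ran from 63.1 to 73.4 over the wild type arrays and from 72.9 to 74.3 over the deletion arrays. With all arrays HSP26 was the 1 marker of the 11 that passed between genotypes, with a 6.79-fold increase, beside 2.82% of all probe sets called higher. At an unadjusted limma p under 0.05, 3 of the 11 were higher and 0 lower (27.3%, beside 17.4% of all probe sets). The list's median difference was 0.26. Without wild type replicate 3 that median was 0.00, HSP26 was again higher, and HSP12, SPG4 and ICL1 passed as lower, by −0.18, −1.23 and −1.28. In that fit 11.9% of all probe sets rose and 10.1% fell. SPG4 had differed by 0.33 with all arrays. Whether the cells of this array differed in growth state, and whether that shaped the members' values, was not tested.

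With wild type replicate 3 left out, 1 member rose (3.03%, beside 11.9% of all probe sets) and 6 fell (18.2%, beside 10.1% of all). SPS100 was the member that rose, by 1.63 ± 0.16 (SE). The 6 that fell were the early genes IME2 and SPO11 and the middle genes MPC54, SPO21, SPS2 and SPS4. SPS4 fell by 0.65 (limma adjusted p = 0.000628) and MPC54 by 0.54 (0.00467). IME2, SPO11, SPO21 and SPS2 fell by 0.51, 0.45, 0.43 and 0.46, with limma adjusted p between 0.0165 and 0.0489. Of the outer plaque genes, MPC54 and SPO21 were among them, and SPO74, at −0.41 ± 0.14, did not pass (limma adjusted p = 0.0657). That fit compares 2 wild type arrays with 3 of the deletion.

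**Figure D3:**
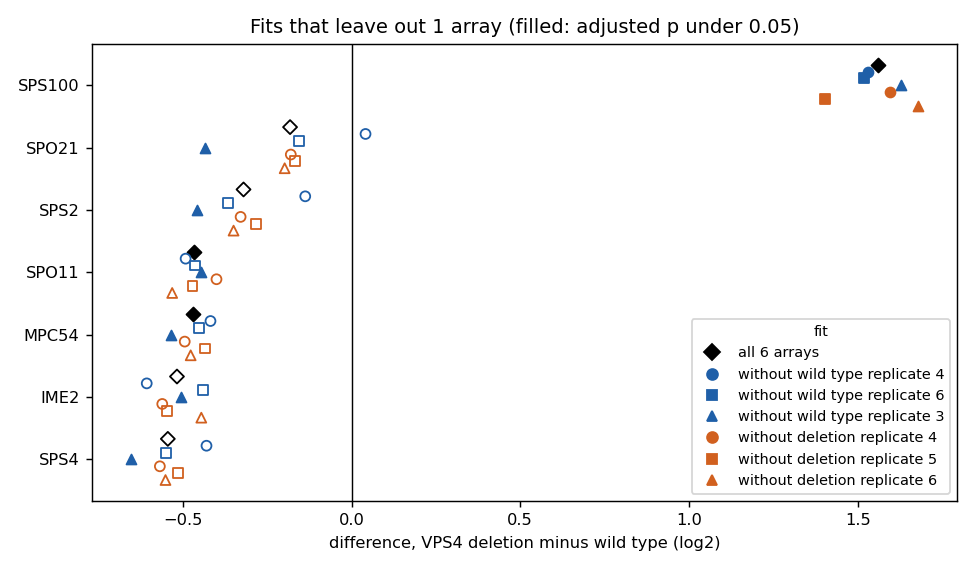
Difference between genotypes (deletion minus wild type, log2, horizontal axis) for the 7 genes that passed in at least 1 fit, from all 6 arrays (black diamonds) and from each fit that left out 1 array (blue for a wild type array, orange for a deletion array), with filled symbols for limma adjusted p under 0.05. SPS100 is filled in every fit, from 1.40 to 1.68, while the other 6 genes are filled at most with all arrays and without wild type replicate 3.

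Of 78 further meiosis and spore genes, all measured, 1 rose (1.28%, beside 2.82% of all probe sets), 2 fell (2.56%, beside 1.46%) and 75 did not pass. An unadjusted limma p under 0.05 was reached by 14 (17.9%, beside 17.4% of all). Their median difference was 0.00.

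Among 25 regulators and repressors, IME4, for an mRNA methyltransferase that promotes meiosis and is known to be repressed in haploid cells by an antisense transcript, fell and 24 did not pass. It measured 3.95, 3.26 and 4.52 on the wild type arrays and 2.15, 2.49 and 2.59 on the deletion arrays. The groups were apart despite a spread of over 1 log2 within wild type, and the difference was −1.50 ± 0.31 (SE; limma adjusted p = 0.0477). Of the 25, 5 were lower and 0 higher at an unadjusted limma p under 0.05, beside 17.4% of all probe sets in either direction. The groups did not overlap for 7 with the deletion lower and 1 with it higher, beside 11.8% and 13.0% of all probe sets. These counts of lower genes include IME4. The main repressors of the programme did not pass, though SUM1 was among the 7. RME1, the repressor of IME1 in haploid cells, had means of 10.59 ± 0.08 for wild type and 10.61 ± 0.01 for the deletion (SD, n = 3; difference 0.02 ± 0.05 SE). UME6 and SUM1 differed by −0.08 ± 0.09 and −0.05 ± 0.04 (SE), and RIM11, a kinase that joins Ime1 to Ume6, by 0.07 ± 0.07.

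Of 24 other early genes, 0 passed (limma), and 1 was higher and 1 lower at an unadjusted p under 0.05 (8.33%, beside 17.4% of all probe sets). Of 29 other middle and late genes, OSW2 rose, SHC1 fell and 27 did not pass, beside 2.82% of all probe sets called higher and 1.46% lower. At an unadjusted limma p under 0.05, 5 of the 29 were higher and 2 lower (24.1%, beside the same 17.4%). OSW2, which acts in assembly of the outer spore wall, measured 3.68, 3.39 and 2.54 on the wild type arrays and 4.75, 4.51 and 4.68 on the deletion arrays. The lowest deletion array was above the highest wild type array, and the increase was 2.71-fold (difference 1.44 ± 0.28 SE, limma adjusted p = 0.0399). SHC1, for an activator of chitin synthesis in spores, was between 8.53 and 8.62 in wild type and between 8.23 and 8.30 in the deletion, a decrease of −0.30 ± 0.05 (SE; limma adjusted p = 0.0235).

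The calls for IME4 and OSW2 were each lost in 4 of the 6 fits that left out an array, and that for SHC1 in 5. Without wild type replicate 3, 5 of the 78 rose and 7 fell, smaller shares than the 11.9% and 10.1% of all probe sets in that fit. Those 12 genes are named here after their values were seen. CYC8, RIM11, FMP45, GSC2 and OSW2 were higher, and IME4, MSN4, CST9, XRS2, CDA1, SHC1 and SSP1 were lower. FMP45 and GSC2, for a membrane protein linked to the spore wall and a glucan synthase, rose by 0.75 ± 0.13 and 0.35 ± 0.04 (SE) in that fit, and with all arrays differed by 0.996 ± 0.22 and 0.50 ± 0.13 without passing (limma adjusted p = 0.0592 and 0.0879). SSP1, for the leading edge coat of the prospore membrane, and CDA1, for a chitin deacetylase of the spore wall, fell by 0.98 and 0.80 in the same fit. With all arrays they differed by −0.45 ± 0.42 and −0.57 ± 0.20 and did not pass (limma adjusted p = 0.659 and 0.208), and SSP1 measured 4.75 on wild type replicate 3, below every deletion array.

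**Figure D4:**
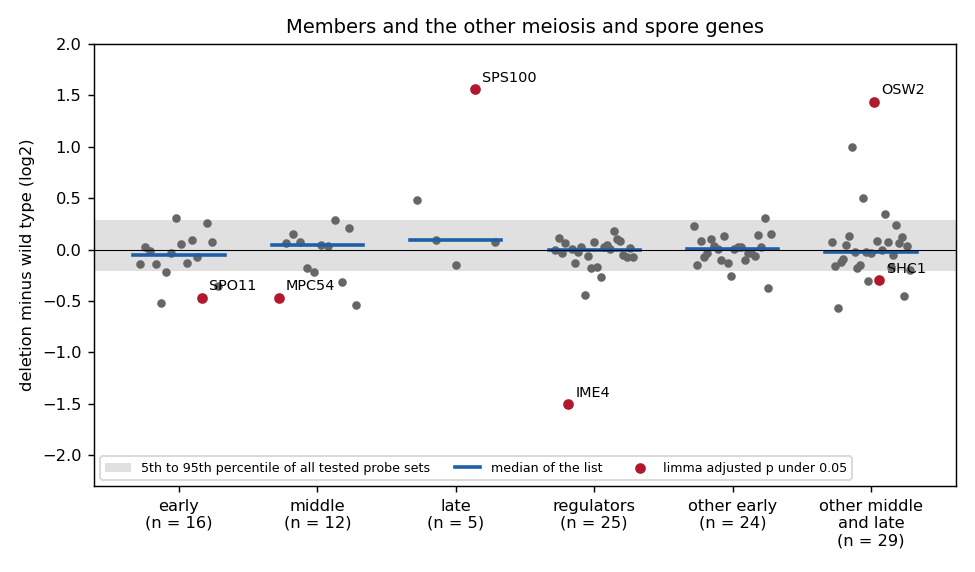
Difference between genotypes (deletion minus wild type, log2) for the early, middle and late genes and for 3 lists of other meiosis and spore genes, with 1 point per gene, red and named where limma adjusted p was under 0.05, and a blue line at each list's median. The grey band spans the middle of the distribution of all tested probe sets, and the medians of the 6 lists lie between −0.05 and 0.10.

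Some genes of mating type, which sets whether a cell can enter meiosis, differed beside these values. Of 4 measured alpha markers, MF(ALPHA)2 and SAG1 fell and 0 rose, beside 1.46% of all probe sets called lower. STE3 fell with them without wild type replicate 3, where 10.1% of all probe sets fell. By unadjusted limma p under 0.05, 3 of the 4 were lower (75.0%, beside 17.4% of all probe sets). The summed log2 level of the 4 ran from 50.2 to 51.0 in wild type and from 49.2 to 49.5 in the deletion. Of 7 a cell markers, MFA2 and STE2 fell and 0 rose, and 4 were lower at an unadjusted limma p under 0.05 (57.1%). The sum of the 7 ran from 31.8 to 33.7 in wild type and from 27.6 to 29.3 in the deletion. Without wild type replicate 3, 4 of them fell, beside the same 10.1% of all probe sets, with AGA2 (−2.19) and MFA1 added. In each fit without a deletion array 0 of the alpha and 0 of the a cell markers passed (limma). Of 9 haploid-specific genes 0 passed (limma; 2 higher and 3 lower at an unadjusted p under 0.05, which is 55.6% of them beside 17.4% of all probe sets). Without wild type replicate 3, HO and NEJ1 were higher and FUS3, GPA1 and STE4 lower, beside 11.9% and 10.1% of all probe sets. All 9 were above background on all 6 arrays, with sums from 84.0 to 85.7 in wild type and from 83.9 to 84.2 in the deletion. The part of mating type expression in the members' differences was not tested.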

How the data were processed

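Values are the authors' deposited log2 expression levels of 6 Affymetrix arrays. GCRMA, which corrects background, equalises the arrays' distributions and gives 1 value a probe set, is named in the submitters' processing notes without a version. Labelling used a 3′ in vitro transcription kit, per the labels' protocols. No further normalization was applied. Gene names came from the platform's annotation table, with 12 symbols updated by gene ID from RefSeq (assembly R64, used for names and neighbours only). The 5498 probe sets of Saccharomyces cerevisiae were tested, and 1746 of the other yeast gave the background. Groups and replicate numbers came from the sample titles. Differences were fitted with limma 3.58.1 in R 4.3.3 (two-sided, with genotype as the one factor and the prior variance allowed to follow mean expression), with Benjamini-Hochberg adjustment over all tested probe sets and a threshold of 0.05. Tests on simulated data checked the fit. With 3 arrays a group, their number limits the precision. Where a gene had several probe sets, that with the highest mean was used. VPS4's fold is a bound against the background.

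The members and lists were chosen with earlier results of these data known. Named are all members, VPS4, 5 regulators (IME4, RME1, UME6, SUM1 and RIM11) and every other listed gene past the threshold; other names are neighbours, markers or genes whose naming after their values were seen is stated beside them. MATALPHA1, listed as a marker, was not analysed here. The alternatives were other variance models, a filter on dim probe sets, quantile normalization, median centring, testing all probe sets of the array, array weights, omission of each array, a block for the title number, thresholds of 0.1 and 0.01, means over a gene's probe sets, and a background at percentile 90 or 99.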

Additional observations from a re-analysis of the deposited data

How the results depend on the processing

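SPS100 passed under every alternative run, and the medians of the members and of the early, middle and late genes moved by less than the spread between replicates under each. Those of all members and of the middle genes, 0.021 and 0.043, still changed sign, to −0.037 and −0.029 after quantile normalization, −0.037 and −0.017 with array weights, −0.035 and −0.026 without wild type replicate 3 and −0.016 and −0.049 with the replicate block, and that of all members also to −0.036 without wild type replicate 6 and to −0.00058 without deletion replicate 5. The count of members that fell, 2 with all arrays, was 1 with a robust variance prior, 0 with all probe sets of the array, 4 with array weights, 4 at a threshold of 0.1 and 0 at 0.01, and lay between 0 and 6 when 1 array was left out, with 6 without wild type replicate 3 and 0 without any other. SPO11 was lost, with its difference at −0.47 (limma adjusted p = 0.0517), under the robust prior, and SPS4 passed in its place after quantile normalization. Whether the numbers in the titles pair the arrays was not settled. Deviations from the group mean correlated at 0.02 for arrays numbered 4 and at −0.06 for those numbered 6. The wild type mean includes replicate 3, which stood apart, so these values cannot decide it. With the title number as a replicate block 5 members fell, and 3 of the other meiosis and spore genes rose and 6 fell. Number 3 occurs only in wild type and number 5 only in the deletion. The block fit therefore takes the difference from the arrays numbered 4 and 6 alone, again without wild type replicate 3. The counts of other genes that rose and fell, 1 and 2 with all arrays, were 0 and 1 without a variance trend, 6 and 8 with array weights, 3 and 4 at a threshold of 0.1 and 0 and 0 at 0.01. They were 2 higher after quantile normalization, and lay between 0 and 5 higher and between 0 and 7 lower when 1 array was left out. Of the 9 haploid-specific markers, 0 of which passed with all arrays, 6 passed with array weights, 5 with the replicate block, 3 at a threshold of 0.1 and 1 after median centring, and of the 7 a cell markers 4 fell with array weights and 5 with the block. Over all tested probe sets, 155 rose and 80 fell with all arrays, 656 and 556 without wild type replicate 3, 600 and 436 with array weights, 478 and 380 with the replicate block, and between 17 and 81 rose and between 5 and 37 fell without 1 of the other arrays.

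Changes of sign occurred in members that did not pass with all arrays, and the turned values did not pass either. After quantile normalization REC102, NDT80 and SPR3 stood at −0.0069, −0.037 and −0.020. With array weights SPR3 and SPS19 stood at −0.068 and −0.040, and with the replicate block RED1, NDT80, SPR3 and SPS19 at 0.00016, −0.016, −0.081 and −0.031. With 1 array left out, the lowest and highest values were −0.049 and 0.266 for SPO16, −0.074 and 0.091 for HOP1, −0.078 and 0.029 for HOP2, −0.042 and 0.144 for REC102, −0.433 and 0.042 for SPO21, −0.081 and 0.131 for SPR3, −0.057 and 0.162 for SPS19, −0.0062 and 0.160 for DIT2 and −0.326 and 0.025 for SPR1. The causes were not tested. Of the 33 members, 29 lay above background on all arrays with the background at percentile 90 and 26 at percentile 99, and 0 and 4 lay above it on no array.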
